A study of Homo sapiens with 3 samples.

Results

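Transcripts of 10 genes of the death receptor and caspase-8 pathway were examined in irradiated T24 cells, a human bladder carcinoma line. The genes were chosen by name from the 58381 genes of a table of RNA-seq read counts: the TRAIL receptors TNFRSF10A, TNFRSF10B, TNFRSF10C and TNFRSF10D, FAS, the TNF receptor TNFRSF1A, and the intracellular proteins FADD, CASP8, CFLAR and RIPK1. All 10 were found by their Ensembl identifiers. There were 3 conditions with 1 library each. Ctrl cells were unirradiated and carry the treatment label Empty, RT cells were control cells exposed to ionising radiation, and RT + shHDAC6 cells carried an shRNA against the deacetylase HDAC6 and were irradiated, with a dose of 10 Gy in the labels. The labels describe lentiviral infection, with a control pLKO.1 vector for the control cells, and puromycin selection. Cells carrying the shRNA without irradiation were not analysed here, the knockdown rests on 1 shRNA in 1 cell line, and the time from irradiation to RNA extraction is not given in the sources used here.

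Death receptors are members of the TNF receptor superfamily that carry a death domain in their cytoplasmic part. TRAIL binding to TNFRSF10A (DR4) or TNFRSF10B (DR5), or FAS ligand binding to FAS, recruits the adaptor FADD and the initiator caspase CASP8, whose activation starts apoptosis. CFLAR (c-FLIP) is a relative of CASP8 that competes for FADD and limits this activation, and RIPK1 is the kinase through which TNFRSF1A signals either to NF-kB and survival or to cell death. TNFRSF10C and TNFRSF10D bind TRAIL without a functional death domain and are known as decoy receptors. The comparisons ask how the transcripts of this pathway stood after irradiation, and whether HDAC6 knockdown altered them in irradiated cells.

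The libraries held between 35424086 and 41811165 counts, with 31034, 28616 and 28913 genes detected and 3.75%, 6.09% and 5.51% of counts on mitochondrial genes in Ctrl, RT and RT + shHDAC6. With 1 library per condition, no difference could be set against a spread between replicates, and p-values are not given. Where 3 values stand together, they are in the order Ctrl, RT and RT + shHDAC6. Levels are CPM, the counts of a gene relative to the TMM-scaled size of its library, and differences are log2 ratios of these levels. The intervals beside them are 95% exact intervals that cover counting error only, since each condition has 1 library. Without molecular identifiers reads of 1 molecule can be counted repeatedly, so the intervals may be too narrow even for counting error. Among the 12733 genes with at least 100 counts in 1 or more libraries, a gene was called when its level differed at least 1.5-fold, a log2 ratio of 0.585 in either direction. Compared with scaling by library totals alone, TMM raised every log2 ratio of RT against Ctrl by 0.22 and of RT + shHDAC6 against Ctrl by 0.13, and lowered every log2 ratio of RT + shHDAC6 against RT by 0.084. The median log2 ratio of all genes tested was 0.052 for RT against Ctrl, -0.019 for RT + shHDAC6 against RT and 0.039 for RT + shHDAC6 against Ctrl, and with library totals these medians were -0.17, 0.065 and -0.094. In these bulk samples, fewer cells of a type and less RNA per cell cannot be told apart.

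HDAC6, the target of the shRNA, had 3098, 2383 and 2170 counts. Its log2 ratio for RT + shHDAC6 against RT was -0.20 (counting interval -0.28 to -0.11), so that the library labelled as the knockdown held 0.872 times the HDAC6 level of RT. The 6 epithelial markers, keratins and adhesion genes of carcinoma cells, summed to 312, 414 and 339 CPM, with KRT18 at 162, 249 and 258 CPM and KRT7 at 77.9, 115 and 17.1 CPM. The others of these markers, KRT8, KRT19, EPCAM and CDH1, were lower in RT than in Ctrl, with KRT8 at 33.3, 23.7 and 30.3 CPM. The uroplakins UPK1B, UPK2 and UPK3A, which define differentiated urothelium, had at most 3 counts in any library, whereas the urothelial transcription factors GATA3, with 2320, 1423 and 709 counts, and PPARG, with 1298, 650 and 352, were well detected and lowest in RT + shHDAC6. Markers of other cell types were present in all libraries: the 11 leukocyte, endothelial and fibroblast markers summed to 75.7, 50 and 58.4 CPM, and 9 of the 11 were lower in RT than in Ctrl. Of these, the fibroblast gene DCN had 1085, 525 and 683 counts and the endothelial gene PECAM1 had 489, 209 and 323, while the leukocyte genes LYZ and PTPRC had 198, 89 and 88 counts and 120, 66 and 57 counts. The part of such RNA in the differences below was not tested.

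The receptors that passed the count filter were higher in the irradiated library than in Ctrl, and none of the intracellular proteins reached 1.5-fold. The mitochondrial share of counts was also higher in both irradiated libraries, and its part in these differences was not tested. In RT against Ctrl, 5 of the 9 pathway genes that passed the count filter were called higher, against 15.8% of all genes tested, and 0 were called lower, against 10.1%. All 5 were receptors, namely TNFRSF10A, FAS, TNFRSF10D, TNFRSF1A and TNFRSF10B, with log2 ratios from 0.68 to 1.14 and a median of 0.83. FADD, CASP8, CFLAR and RIPK1 lay between -0.027 and 0.32, with a median of 0.16. With library totals in place of TMM, 3 of the 5 receptors stayed past 1.5-fold (TNFRSF10A, TNFRSF10D and FAS), against 8.21% of all genes, and the higher and lower calls over all genes changed from 2009 and 1281 to 1046 and 2514. The distance between the receptors and the intracellular proteins does not depend on the scaling. For RT against Ctrl, the lowest receptor, TNFRSF10B, lay 0.36 (counting interval 0.27 to 0.45) above the highest intracellular protein, CFLAR, on the log2 scale. The other comparisons did not show this separation. For RT + shHDAC6 against Ctrl, TNFRSF1A less FADD was -0.062 (counting interval -0.21 to 0.084). For RT + shHDAC6 against RT, TNFRSF1A less RIPK1 was -0.62 (counting interval -0.72 to -0.52). These intervals take no account of the choice of the genes as extremes. Among the 8052 genes with total counts in the range of the pathway genes, 17.0% were at least 1.5-fold higher in RT than in Ctrl and 5.5% at least 1.5-fold lower.

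**Figure D1:**
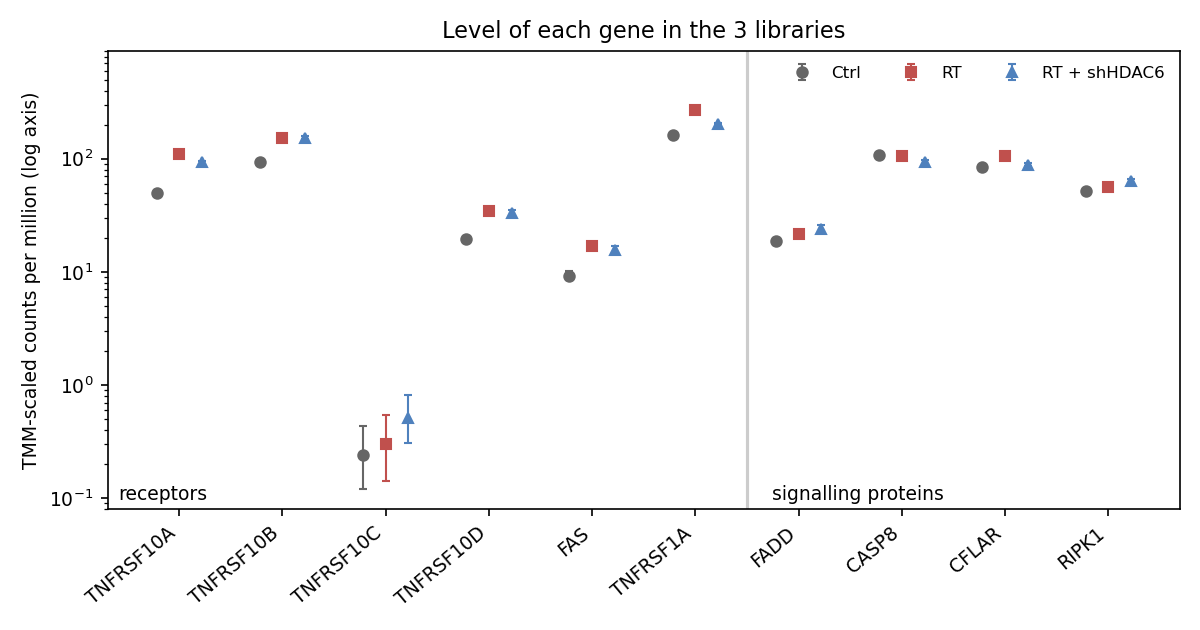
Level of each of the 10 genes in TMM-scaled CPM on a log axis, with 1 point per library and bars for 95% exact Poisson intervals (counting error only). TNFRSF10A, TNFRSF10B, TNFRSF10D, FAS and TNFRSF1A are lowest in Ctrl, while CASP8, CFLAR, FADD and RIPK1 stay within a narrow range and TNFRSF10C stays under 1 CPM.

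TNFRSF10A, which carries a death domain and binds TRAIL, had 2280 counts (50.3 CPM) in Ctrl, 3706 (110.5 CPM) in RT and 3260 (93.1 CPM) in RT + shHDAC6. It was lowest in Ctrl and highest in RT. Its log2 ratio for RT against Ctrl was 1.14 (counting interval 1.06 to 1.21), a 2.2-fold difference, and 97.3% of all genes tested had a lower ratio. TNFRSF10A was the only pathway gene past 2-fold in that comparison. In RT + shHDAC6 it lay under RT, at a log2 ratio of -0.25 (counting interval -0.32 to -0.18), and remained 1.85-fold above Ctrl.

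TNFRSF10B, the other TRAIL receptor with a death domain and the more abundant of the pair by counts, had 4281 counts (94.4 CPM) in Ctrl, 5084 (152 CPM) in RT and 5359 (153 CPM) in RT + shHDAC6. Both irradiated libraries were above Ctrl and close to each other. The log2 ratio was 0.68 (counting interval 0.62 to 0.74) for RT against Ctrl and 0.014 (counting interval -0.042 to 0.070) for RT + shHDAC6 against RT.

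Of the decoy receptors, TNFRSF10D had 882, 1160 and 1163 counts, or 19.5, 34.6 and 33.2 CPM. It was higher in both irradiated libraries, with a log2 ratio of 0.83 (counting interval 0.70 to 0.96) for RT against Ctrl, and RT + shHDAC6 could not be told from RT at this depth (log2 ratio -0.058, counting interval -0.18 to 0.060, and 0.025 with library totals). TNFRSF10C had only 11, 10 and 18 counts and did not pass the count filter. Its level was under 1 CPM in each library, and no difference was detectable at this depth (log2 ratio 0.30, counting interval -1.09 to 1.67, for RT against Ctrl, and 0.79, counting interval -0.41 to 2.06, for RT + shHDAC6 against RT). In addition, 30.8% of the 50-base stretches of its canonical transcript also occur in transcripts of other genes, the overlapping ENSG00000284948 and ENSG00000284956, so its few counts could be divided among them.

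FAS, the receptor of FAS ligand, had 421 counts (9.28 CPM) in Ctrl, 564 (16.8 CPM) in RT and 546 (15.6 CPM) in RT + shHDAC6. It was the least abundant of the receptors that passed the filter. Its log2 ratio was 0.86 (counting interval 0.67 to 1.04) for RT against Ctrl, and RT + shHDAC6 could not be told from RT (log2 ratio -0.11, counting interval -0.28 to 0.063). Exons of FAS overlap those of ACTA2 on the other strand over 1.32% of its exon length, those of STAMBPL1 on the same strand over 0.566%, and those of the lncRNA ENSG00000286116, whose counts were not used here, on the other strand over 6.48%.

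TNFRSF1A, the TNF receptor found on most cell types, was the most abundant of the 10 genes. It had 7383 counts (163 CPM) in Ctrl, 9120 (272 CPM) in RT and 7073 (202 CPM) in RT + shHDAC6. RT was the highest library, and RT + shHDAC6 lay between the other two. The log2 ratio was 0.74 (counting interval 0.70 to 0.78) for RT against Ctrl, and TNFRSF1A was the gene with the lowest ratio for RT + shHDAC6 against RT, at -0.43 (counting interval -0.47 to -0.38), which is 0.743 times the RT level. In that comparison 10.0% of all genes tested had a lower ratio.

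**Figure D2:**
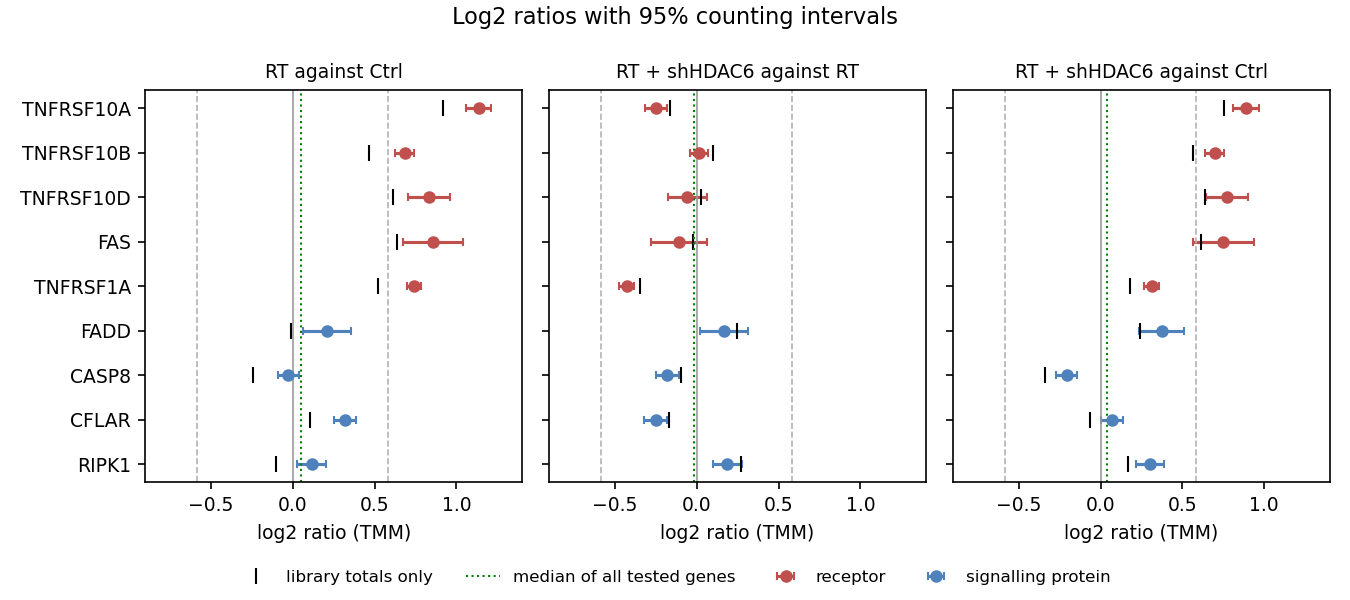
Log2 ratios (TMM scaling) of the 9 genes that passed the count filter in the 3 comparisons, with 95% counting intervals, receptors in red and signalling proteins in blue. Dashed lines mark 1.5-fold, the dotted line marks the median of all genes tested and black ticks give the value with library totals only, where FADD and RIPK1 fall under 0 for RT against Ctrl, CFLAR falls under 0 for RT + shHDAC6 against Ctrl and TNFRSF10D rises above 0 for RT + shHDAC6 against RT.

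FADD, the adaptor that links receptors to CASP8, had 844 counts (18.6 CPM) in Ctrl, 721 (21.5 CPM) in RT and 844 (24.1 CPM) in RT + shHDAC6. Its log2 ratio was 0.21 (counting interval 0.063 to 0.35) for RT against Ctrl, which became -0.0097 with library totals, and 0.17 (counting interval 0.020 to 0.31) for RT + shHDAC6 against RT. Its exons overlap the lncRNA ENSG00000254721 on the other strand over 59.2% of their length, and that gene had at most 3 counts in any library. The strand setting of the counting is not given, and the effect of the overlap on the FADD counts was not tested.

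CASP8 had 4891 counts (108 CPM) in Ctrl, 3550 (106 CPM) in RT and 3273 (93.5 CPM) in RT + shHDAC6. Ctrl and RT were close, with a log2 ratio of -0.027 (counting interval -0.090 to 0.036) that was -0.24 with library totals and 0.031 with median-of-ratios scaling. RT + shHDAC6 was the lowest library, at a log2 ratio of -0.18 (counting interval -0.25 to -0.11) against RT and of -0.21 (counting interval -0.27 to -0.14) against Ctrl.

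CFLAR had 3837 counts (84.6 CPM) in Ctrl, 3546 (106 CPM) in RT and 3110 (88.8 CPM) in RT + shHDAC6. RT was the highest library, and the other two were close. The log2 ratio was 0.32 (counting interval 0.26 to 0.39) for RT against Ctrl and -0.25 (counting interval -0.32 to -0.18) for RT + shHDAC6 against RT. For RT + shHDAC6 against Ctrl it was 0.070 (counting interval 0.0013 to 0.14), and -0.064 with library totals.

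RIPK1 had 2340 counts (51.6 CPM) in Ctrl, 1874 (55.9 CPM) in RT and 2227 (63.6 CPM) in RT + shHDAC6. It was the pathway gene with the highest ratio for RT + shHDAC6 against RT among those that passed the filter, 0.19 (counting interval 0.098 to 0.28). For RT against Ctrl its log2 ratio was 0.11 (counting interval 0.026 to 0.20), and -0.10 with library totals.

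The comparison of RT + shHDAC6 with RT asked whether the knockdown altered these levels in irradiated cells. HDAC6 itself was not called lower in it, at a log2 ratio of -0.20 (-0.11 with library totals), and 24.9% of all genes tested had a lower ratio. Among the 9 genes, 0 were called higher, against 3.27% of all genes tested, and 0 were called lower, against 5.76%. The log2 ratios ran from -0.43 in TNFRSF1A to 0.19 in RIPK1, with a median of -0.11. Counting intervals excluded 0 on the lower side for TNFRSF1A, CFLAR, TNFRSF10A and CASP8 and on the higher side for RIPK1 and FADD. The variation between replicate libraries is not known, so that differences of this size cannot be set against it. Against Ctrl, 4 of the 9 genes were called higher in RT + shHDAC6, against 13.5% of all genes tested, and 0 were called lower, against 11.7%. These were TNFRSF10A (log2 ratio 0.89, counting interval 0.81 to 0.97), TNFRSF10D (0.77, counting interval 0.64 to 0.90), FAS (0.75, counting interval 0.56 to 0.94) and TNFRSF10B (0.70, counting interval 0.64 to 0.76, and 0.56 with library totals, under 1.5-fold). TNFRSF1A was at 0.31 (counting interval 0.26 to 0.36). The comparisons share libraries, so their values are not independent of each other.

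**Figure D3:**
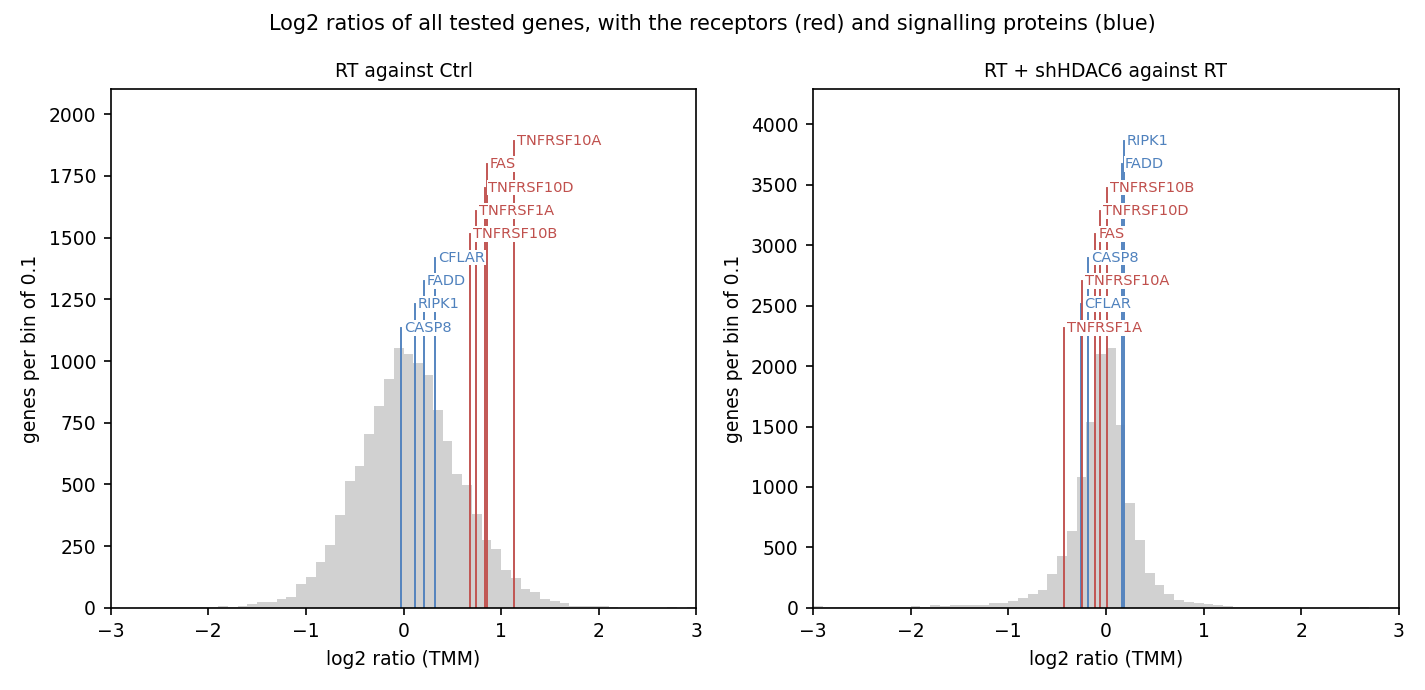
Number of genes per bin of 0.1 of the log2 ratio (TMM scaling) over the 12733 genes tested, with values beyond 3 placed in the end bins, and the 9 pathway genes as lines, receptors in red and signalling proteins in blue. For RT against Ctrl the receptors lie on the right shoulder, from 0.68 to 1.14, and for RT + shHDAC6 against RT all 9 genes lie between -0.43 and 0.19. With library totals the receptors lie from 0.47 to 0.92 for RT against Ctrl.

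Ratios of counts between genes of the same library do not depend on the scaling between libraries. The CFLAR to CASP8 count ratio, of inhibitor to initiator caspase, was 0.785 (counting interval 0.752 to 0.819) in Ctrl, 0.999 (counting interval 0.953 to 1.05) in RT and 0.95 (counting interval 0.904 to 0.998) in RT + shHDAC6. Both irradiated libraries were above Ctrl, and their intervals overlapped each other. TNFRSF10A made up 34.8% (counting interval 33.6 to 35.9) of the counts of the 2 TRAIL receptors with a death domain in Ctrl, 42.2% (counting interval 41.1 to 43.2) in RT and 37.8% (counting interval 36.8 to 38.9) in RT + shHDAC6. In contrast, the decoy receptors took 12.0% (counting interval 11.3 to 12.7) of the counts of the 4 TRAIL receptors in Ctrl, 11.8% (counting interval 11.1 to 12.4) in RT and 12.1% (counting interval 11.4 to 12.7) in RT + shHDAC6, with overlapping intervals.

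For the TNF receptor branch, the RIPK1 to TNFRSF1A count ratio was 0.317 (counting interval 0.302 to 0.332) in Ctrl, 0.205 (counting interval 0.195 to 0.216) in RT and 0.315 (counting interval 0.300 to 0.330) in RT + shHDAC6. Ctrl and RT + shHDAC6 had overlapping intervals, and RT was lower than both. The RIPK1 to CASP8 count ratio was 0.478, 0.528 and 0.680 and the FADD to CASP8 count ratio was 0.173, 0.203 and 0.258 in Ctrl, RT and RT + shHDAC6. Both were highest in RT + shHDAC6. Over all 10 genes, the share of the counts that fell on receptors was 56.2%, 67.0% and 64.8%.

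Levels between genes were compared per length, in CPM per kilobase. With the summed length of all annotated exons, Ctrl had 38.7 for TNFRSF1A, 18.8 for TNFRSF10B, 17.2 for TNFRSF10A, 14.9 for CASP8, 10.9 for FADD, 5.5 for TNFRSF10D, 4.24 for RIPK1, 3.76 for CFLAR, 0.317 for FAS and 0.157 for TNFRSF10C. The order depends on the length used. The annotated exons of FAS span 29313 bases and those of CFLAR 22478 bases, whereas their canonical transcripts hold 3696 and 14612 bases. With canonical lengths, a choice made after the data had been seen, Ctrl had 75 CPM per kilobase for TNFRSF1A, 40.6 for CASP8, 23.6 for TNFRSF10B, 18.7 for TNFRSF10A, 12.6 for RIPK1, 10.9 for FADD, 5.79 for CFLAR, 5.5 for TNFRSF10D, 2.51 for FAS and 0.174 for TNFRSF10C. TNFRSF1A was the highest and TNFRSF10C the lowest gene with both lengths. CFLAR was lower than CASP8 with both, at 0.253 times the CASP8 level in Ctrl by exon length.

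The 250 bases before the start site are shown for TNFRSF1A and FAS, which were called higher in RT, and for CASP8 and CFLAR, which were not. They were taken from RefSeq promoter sequences (GRCh38.p14), in which 6 of the 10 genes were matched by symbol. Capitals mark matches on either strand to the letters GGGCGG of a GC box, to the CCAAT box or to the letters TATAAA of a TATA box. They also mark the ETS core CCGGAA and TGANTCA, a loose AP-1 pattern with any base in the middle, which is wider than the AP-1 site itself. No matches overlapped within these 4 sequences. The FAS sequence lies at chr10:88990548-88990797 on the plus strand, TNFRSF1A at chr12:6342077-6342326 on the minus strand, CASP8 at chr2:201233213-201233462 and CFLAR at chr2:201118466-201118715, both on the plus strand. All 4 RefSeq starts lie inside the GENCODE span of the gene, downstream of its first transcribed base.
FAS: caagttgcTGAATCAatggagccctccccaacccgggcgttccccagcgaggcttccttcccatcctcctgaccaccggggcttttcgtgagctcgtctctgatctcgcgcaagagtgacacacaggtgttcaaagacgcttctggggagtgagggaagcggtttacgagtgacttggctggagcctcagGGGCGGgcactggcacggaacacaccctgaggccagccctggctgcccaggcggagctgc
TNFRSF1A: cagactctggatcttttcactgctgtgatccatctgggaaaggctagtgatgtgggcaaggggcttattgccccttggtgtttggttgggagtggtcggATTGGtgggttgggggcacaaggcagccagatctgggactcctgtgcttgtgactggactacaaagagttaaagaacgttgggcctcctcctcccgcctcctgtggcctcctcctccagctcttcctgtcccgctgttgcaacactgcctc
CASP8: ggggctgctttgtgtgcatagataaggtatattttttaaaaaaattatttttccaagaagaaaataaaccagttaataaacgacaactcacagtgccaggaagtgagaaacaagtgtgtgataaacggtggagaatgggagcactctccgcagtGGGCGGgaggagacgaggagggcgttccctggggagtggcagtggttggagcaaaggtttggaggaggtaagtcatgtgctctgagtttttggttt
CFLAR: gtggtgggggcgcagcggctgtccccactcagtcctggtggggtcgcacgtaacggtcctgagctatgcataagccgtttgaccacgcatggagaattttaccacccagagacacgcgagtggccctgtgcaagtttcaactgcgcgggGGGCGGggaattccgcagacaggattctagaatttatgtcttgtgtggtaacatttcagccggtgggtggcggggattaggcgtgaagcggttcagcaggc

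FAS held a GC box and the letters TGAATCA, a match to the loose AP-1 pattern only. TNFRSF1A held a CCAAT box, and CASP8 and CFLAR a GC box each. The promoter of FADD held 2 GC boxes and an ETS core, and that of RIPK1 held 2 GC boxes, with 1 base in overlapping matches, a CCAAT box and a TATA box. Of 34788 promoters of the same length, 42.6% held a GC box, 32.0% a CCAAT box, 10.8% a TATA box, 6.59% a match to the loose AP-1 pattern and 14.5% an ETS core. No motif was common to both receptors. FADD and RIPK1 had 32 and 29 CpG, more than 90.5% and 85.9% of all promoters, and TNFRSF1A, CASP8, FAS and CFLAR had 4, 6, 14 and 17, beside a median of 11.

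The 4 TRAIL receptors lie side by side on chromosome 8 of GRCh38, from 23020133 to 23225102, in the order TNFRSF10B, TNFRSF10C, TNFRSF10D and TNFRSF10A, within 205 kilobases. TNFRSF10C is on the plus strand and the others are on the minus strand. Within this cluster, TNFRSF10A (23190452 to 23225102), TNFRSF10B (23020133 to 23069031) and TNFRSF10D (23135588 to 23164027) were called higher in RT than in Ctrl, whereas TNFRSF10C (23102921 to 23117445) was near the limit of detection. CFLAR (201116154 to 201176687), CASP10 and CASP8 (201233443 to 201361836) form a second cluster within 245.7 kilobases of chromosome 2, all on the plus strand. CASP10, a close relative of CASP8, had 122, 69 and 41 counts. It passed the count filter only through Ctrl, its highest library, so that its log2 ratio for RT + shHDAC6 against RT, -0.81 (counting interval -1.41 to -0.23), is given as a description, while its neighbours CASP8 and CFLAR were at -0.18 and -0.25. The sum of the 5 leukocyte markers was also lowest in RT + shHDAC6, at 7.65, 5.34 and 4.80 CPM, but RT and RT + shHDAC6 were close, with 179 and 168 counts. Among these markers CD3E went the other way, at 0.33, 0.42 and 0.49 CPM. The part of such RNA in CASP10 was not tested. FAS lies on chromosome 10 (88953813 to 89029605), TNFRSF1A on chromosome 12 (6328757 to 6342114), FADD on chromosome 11 (70203296 to 70207390) and RIPK1 on chromosome 6 (3063824 to 3115187).

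Other genes of the pathway were examined through 7 lists with 62 genes, of which 52 passed the count filter. The lists are a selection, chosen with earlier results of these data known. For RT against Ctrl, 6 of the 52 were called higher and 1 lower, against 15.8% and 10.1% of all genes tested, and the median log2 ratio was 0.044, beside 0.052 for all genes tested. With library totals, 3 were called higher and 9 lower, against 8.21% and 19.7% of all genes. For RT + shHDAC6 against RT, 1 was called higher and 4 lower, against 3.27% and 5.76%, with a median of 0.063 beside -0.019. Among the 4 is CASP10, without which 3 were lower.

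Ligands were scarce. FASLG, TNF and LTA had at most 8 counts in any library. TNFSF10, which encodes TRAIL itself, had 197, 100 and 136 counts, a log2 ratio of -0.54 (counting interval -0.91 to -0.19) for RT against Ctrl, and -0.76 with library totals, past 1.5-fold. The TRAIL transcript was lowest in RT, but RT + shHDAC6 could not be told from RT (log2 ratio 0.38, counting interval -0.0016 to 0.77). TNFSF15, the ligand of the death receptor TNFRSF25, was the exception, with 7823, 5225 and 2968 counts. It was called lower in RT + shHDAC6 against RT, with a log2 ratio of -0.88 (counting interval -0.94 to -0.81).

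The list of other receptors held 9 members of the family, selected with earlier results of these data known, and 4 of the 9 passed the filter. Of these, 3 were called higher in RT than in Ctrl, beside 15.8% of all genes tested. TNFRSF12A (Fn14), the receptor of TWEAK, had 2975, 8938 and 6918 counts, a log2 ratio of 2.02 (counting interval 1.96 to 2.08) for RT against Ctrl. LTBR, the lymphotoxin beta receptor, had 9731, 17687 and 11844 counts, and TNFRSF21 (DR6), which carries a death domain, had 1362, 1744 and 823. Both were called lower for RT + shHDAC6 against RT, beside 5.76% of all genes tested. Their log2 ratios were -0.64 (counting interval -0.67 to -0.61) and -1.15 (counting interval -1.27 to -1.02). With library totals TNFRSF21 was at 0.57 for RT against Ctrl and LTBR at -0.56 for RT + shHDAC6 against RT, both under 1.5-fold. TNFRSF25 was the receptor that was not called, with a log2 ratio of 0.0010 for RT against Ctrl.

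When the pathway genes and the lists were combined, a grouping made after the values had been seen, the genes called higher for RT against Ctrl were 8 of 9 receptors that passed the filter and 3 of 49 intracellular proteins, beside 15.8% of all genes tested. With library totals, 5 of the 9 receptors and 1 of the 49 intracellular proteins were called higher, beside 8.21%, and the intracellular proteins called lower went from 1 to 7. The median log2 ratios (TMM scaling) were 0.83 and 0.062. For RT + shHDAC6 against RT, 2 of the 9 receptors were called lower and 0 higher, with a median of -0.25. The intracellular proteins had 1 call in each direction, the lower one being CASP10, with a median of 0.063. Of all genes tested, 5.76% were called lower and 3.27% higher in that comparison.

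The adaptors and ubiquitin enzymes that act on RIPK1 had 2 of 14 genes called higher in RT and 0 lower, near the 15.8% of all genes called higher, with a median log2 ratio of 0.24. TRAF1, an adaptor and known NF-kB target, had 206, 307 and 399 counts, a log2 ratio of 1.01 (counting interval 0.75 to 1.27) for RT against Ctrl. BIRC2, which encodes the ubiquitin ligase cIAP1, had 2517, 2934 and 3836 counts and a log2 ratio of 0.66 (counting interval 0.58 to 0.73), or 0.44 with library totals, under 1.5-fold. Its relative BIRC3 (cIAP2) had 1328, 1303 and 1775 counts and was called only for RT + shHDAC6 against Ctrl, at 0.79 (counting interval 0.69 to 0.90). TRAF1, BIRC2 and BIRC3 were all highest in RT + shHDAC6.

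The kinases of the TNF receptor branch and their partner proteins, listed together, had a median log2 ratio of -0.11 for RT against Ctrl. Of these 10 genes, 0 were called higher and 1 lower, against 15.8% and 10.1% of all genes tested. The gene called was TAB2, a partner of the kinase MAP3K7, with 6123, 2749 and 2983 counts and a log2 ratio of -0.72 (counting interval -0.79 to -0.66). With library totals 2 were called lower, MAP3K7 (-0.62) and TAB2 (-0.94), against 19.7% of all genes. IKBKG, another of the partner proteins, was called for RT + shHDAC6 against Ctrl only, at 0.63 (counting interval 0.47 to 0.79), and 0.50 with library totals, under 1.5-fold. Of the necroptosis genes, RIPK3 had at most 7 counts and ZBP1 at most 16, while MLKL had 2243, 2244 and 2489 counts and was not called. TICAM1, an adaptor that can bind RIPK1, had 633, 397 and 841 counts. Its log2 ratio of 1.02 (counting interval 0.85 to 1.20) for RT + shHDAC6 against RT was the only higher call in that comparison among the 52 genes.

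Downstream of CASP8, 1 of 12 genes was called higher in RT against Ctrl and 0 lower, beside 15.8% and 10.1% of all genes tested. With library totals 0 were called higher and 4 lower, namely APAF1 (-0.68), XIAP (-0.69), CASP9 (-0.74) and CASP6 (-0.60), beside 19.7% of all genes. BID, the CASP8 substrate that carries the signal to mitochondria, had 970, 1106 and 1123 counts, a log2 ratio of 0.62 (counting interval 0.50 to 0.75) for RT against Ctrl, and 0.41 with library totals, under 1.5-fold. CASP9 had 651, 335 and 279 counts and was called lower with TMM scaling only in RT + shHDAC6 against Ctrl, at -0.85 (counting interval -1.06 to -0.64). The caspase inhibitor XIAP had 4012, 2142 and 2198 counts, and APAF1, which assembles the apoptosome, had 2924, 1568 and 1736. In RT + shHDAC6 against RT, 0 of the 12 were called, beside 3.27% of all genes tested called higher and 5.76% called lower. Among the 7 partners and regulators of CASP8, 0 were called in RT against Ctrl, and none besides CASP10, described above, in RT + shHDAC6 against RT. The shares of all genes beside these counts are those given above for the 2 comparisons.

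**Figure D4:**
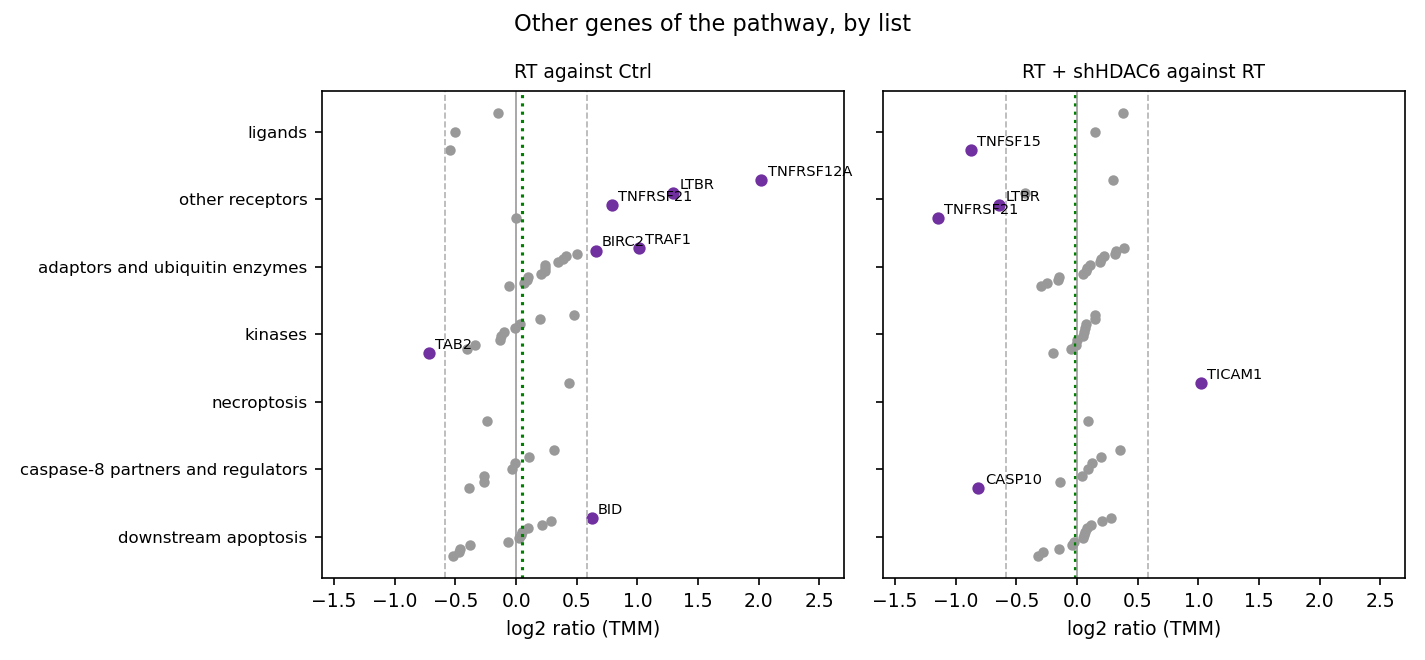
Log2 ratios (TMM scaling) of the 52 pathway genes that passed the count filter, by list, for RT against Ctrl and RT + shHDAC6 against RT. Purple points with names are genes past 1.5-fold (dashed lines), grey points are the others, and the dotted line is the median of all genes tested. TNFRSF12A, LTBR and TNFRSF21 lie to the right for RT against Ctrl, and TNFRSF21 and LTBR to the left for RT + shHDAC6 against RT.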

How the data were processed

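The authors deposited whole-number counts per gene without normalisation, made with featureCounts on GENCODE release 28 after adapter trimming (cutadapt) and alignment to GRCh38 by STAR (2.6.1a in the submitters' processing notes, another version in the paper's methods). The kit was stranded, but the strand setting of the counting and the handling of reads matching several genes are not given in the sources used here, so paralogs and overlapping genes could share counts. Of the 58381 identifiers, 57754 matched a gene of GENCODE release 44, which gave symbols, lengths and GRCh38 positions. No column was left unused.

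With 1 library per condition no test could be run. NOISeq, named in the study's methods, was not run. TMM factors over the 3 libraries came from edgeR 4.0.16 (R 4.3.3), median-of-ratios factors from DESeq2 1.42.0, and intervals from scipy 1.17.1 (Clopper-Pearson for ratios, Poisson for levels, normal approximation for the distance between 2 log2 ratios). Counts of 0 were set to 0.5. The scripts were tested on simulated data.

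The genes and lists were chosen with earlier results of these data known. Named genes are the 10 pathway genes, HDAC6, CASP10, list genes called in any comparison and genes overlapping a pathway gene's exons. Other list genes, given as counts, were chosen after their values were seen. The rule also named genes closest in pattern to pathway genes called in RT + shHDAC6 against RT, of which there were 0. Lists were ligands, other receptors, adaptors and ubiquitin enzymes, kinases with their partner proteins, necroptosis genes, caspase-8 partners and regulators, and downstream apoptosis genes. Markers were epithelial, urothelial, leukocyte, endothelial and fibroblast genes. Alternatives were 3 other scalings, count minimums of 10 and of any count, thresholds of 1.25-fold and 2-fold, zeros set to 1 and levels per length; chosen after seeing the data were canonical lengths and, for the lists, other scalings and a count minimum in the libraries compared. Results for some genes are not reported here.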

Additional observations from a re-analysis of the deposited data

How the results depend on the processing

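No paired analysis was possible because each condition had 1 library. With library totals, 3 of the 9 pathway genes, and not 5, were called higher in RT than in Ctrl. With a 2-fold threshold 1 was called higher in RT than in Ctrl (TNFRSF10A), against 4.26% of all genes tested. At 2-fold, 0 were called higher in RT + shHDAC6 than in Ctrl, against 3.58%. With the lower alternative threshold 1 was called lower for RT + shHDAC6 against RT (TNFRSF1A), against 14.8% of all genes tested. With a minimum of 10 counts, or of any count, 1 was called higher for RT + shHDAC6 against RT (TNFRSF10C, with 10 and 18 counts). Of all genes passing these minimums, 11.2% and 20.3% were called higher in that comparison. The other counts of called pathway genes among the 10 stayed within 1.5 times. Over all genes, library totals moved the lower calls of RT against Ctrl from 1281 to 2514, and those of the 52 list genes from 1 to 9, an alternative chosen after seeing the data. Per kilobase of exon, the CFLAR to CASP8 ratio was 0.253, 0.322 and 0.306, the decoy share 13.6%, 12.8% and 13.5%, and the TNFRSF10A share 47.7%, 55.5% and 51.0% in Ctrl, RT and RT + shHDAC6, by the construction of dividing by length. Of the 30 log2 ratios of the pathway genes, 21 moved beyond their counting interval with library totals, 2 with median-of-ratios factors, 1 with upper quartile factors and 0 with zeros set to 1, and 4, 1, 0 and 0 changed sign, none of them called. Without replicates, intervals cover counting error only, and FASLG, TNF, LTA, RIPK3 and TNFRSF10C were too low for a difference to be read.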

Other observations

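Some genes annotated across the exons of the pathway genes changed in their own counts. The pseudogene IMPDH1P10, on the strand opposite to CFLAR over 6.62% of its exon length, had 3, 8 and 55 counts in the order Ctrl, RT and RT + shHDAC6, and the antisense RNA CFLAR-AS1 had 6, 6 and 16. ACTA2, opposite to FAS, had 871, 388 and 482 counts. TNFRSF10A-DT, which starts opposite to TNFRSF10A and overlaps 9.09% of its exon length, had 167, 134 and 174 counts, and RHOBTB2, opposite to TNFRSF10B over 7.52%, had 1211, 1205 and 1213. If strand was not used in the counting, reads from such partners cannot be told apart.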
